A study of Mus musculus with 4 samples.

Results

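The 10 genes described here are Dicer1 and the core genes of microRNA processing: Drosha, Dgcr8, Xpo5, Dicer1, its partners Tarbp2 and Prkra, and the Argonaute genes Ago1, Ago2, Ago3 and Ago4. They were listed by name, and every ATAC-seq peak that overlapped the body of one of them or lay within 10 kb of it was taken as its own. All 10 were found among the 21887 protein-coding genes placed in the genome, and 34 of the 61972 merged regions of the study lay at them.

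Chromatin accessibility was measured by ATAC-seq, in which a transposase cuts and tags open DNA, in dissected lung tumour tissue of 4 C57B6J mice aged 55 weeks. The 2 KrasLA1;Dicer1S2D mice carried 1 copy of KrasLA1 and 1 copy of Dicer1S2D, and the 2 KrasLA1 mice carried 1 copy of KrasLA1 and no other allele named in the labels. KrasLA1 is a latent oncogenic allele, shared by both groups, that becomes active in single cells by spontaneous recombination, so a mouse develops several lung tumours. Dicer1S2D encodes a Dicer1 protein that mimics its phosphorylated form. In each group replicate 1 was a female and replicate 2 a male, so replicate number and sex cannot be told apart. The tissue held whatever cells the tumours contained, and whether 1 or several tumours of a mouse were taken is not stated.

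MicroRNAs are short RNAs that lower the stability and translation of messenger RNAs. In the nucleus, Drosha and its RNA-binding partner Dgcr8 cut a hairpin out of the primary transcript, and Xpo5 carries this precursor to the cytoplasm. There Dicer1, bound to Tarbp2 or Prkra, cuts the hairpin to a short duplex, and an Argonaute protein takes up 1 strand of it and is guided by it to its targets.

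Each value rests on the positions of the authors' peaks, which were called library by library. The files record where a peak starts and ends, with no height or count. Read numbers are not given, so depth is unknown and a region called in some libraries only need not be closed in the others. The KrasLA1;Dicer1S2D libraries held 50282 and 34767 peaks with median widths of 410 and 468 bp, against 41621 and 44654 peaks with median widths of 453 and 534 bp in the KrasLA1 libraries. KrasLA1;Dicer1S2D replicate 2 thus had the fewest peaks, and KrasLA1 replicate 2 the widest. Peaks lay at 8 of 8 lung epithelial marker genes in every library, at 3 of 5 immune markers, at 2 of 3 endothelial markers (none at Cdh5), at 2 or 3 of 3 fibroblast and smooth muscle markers, and at 0 or 1 of 4 marker genes of other tissues.

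The promoter DNA of 4 of the genes is printed here because a peak at the start of transcription was common in all 4 tumours. Among the genes with a RefSeq promoter entry there was 1 exception. Ago2 had no entry, so its start was not examined. Dicer1 and Dgcr8 are given as starts that were open in every tumour. Ago4 is given as a start whose raw peak widths did not overlap between the groups, and Tarbp2 as the only examined start with no peak. Each sequence is the 250 bases before the start of transcription in RefSeq for GRCm38.p6, read 5′ to 3′ on the strand of the gene. Capitals mark the CCAAT box (CCAAT, or ATTGG on the other strand) and the GC box (GGGCGG, or CCGCCC on the other strand), 2 short motifs common in promoters of widely expressed genes, and neighbouring GC boxes may overlap. They lie on the reverse strand at chr12:104751953-104752202 for Dicer1, chr16:18289169-18289418 for Dgcr8 and chr4:126533459-126533708 for Ago4, and on the forward strand at chr15:102517942-102518191 for Tarbp2.
Dicer1: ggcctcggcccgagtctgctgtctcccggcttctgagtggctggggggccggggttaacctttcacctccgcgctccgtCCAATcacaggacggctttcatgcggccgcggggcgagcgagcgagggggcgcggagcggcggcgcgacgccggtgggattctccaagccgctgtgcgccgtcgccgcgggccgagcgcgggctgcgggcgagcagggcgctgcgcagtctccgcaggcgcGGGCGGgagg
Dgcr8: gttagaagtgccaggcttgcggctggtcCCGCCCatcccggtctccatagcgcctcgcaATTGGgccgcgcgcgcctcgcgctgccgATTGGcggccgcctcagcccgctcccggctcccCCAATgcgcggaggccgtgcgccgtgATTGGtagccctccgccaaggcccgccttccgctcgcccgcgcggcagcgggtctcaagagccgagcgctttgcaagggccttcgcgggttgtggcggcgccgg
Ago4: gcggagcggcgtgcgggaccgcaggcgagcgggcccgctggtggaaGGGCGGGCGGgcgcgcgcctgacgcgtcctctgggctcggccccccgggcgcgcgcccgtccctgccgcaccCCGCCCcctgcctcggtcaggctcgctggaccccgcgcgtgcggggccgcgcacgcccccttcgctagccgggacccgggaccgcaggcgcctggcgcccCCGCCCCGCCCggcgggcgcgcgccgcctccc
Tarbp2: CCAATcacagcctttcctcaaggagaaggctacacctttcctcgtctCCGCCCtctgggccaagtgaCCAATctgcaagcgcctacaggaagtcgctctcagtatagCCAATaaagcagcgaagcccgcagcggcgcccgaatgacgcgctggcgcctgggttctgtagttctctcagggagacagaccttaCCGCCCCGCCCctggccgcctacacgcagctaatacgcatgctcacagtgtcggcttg

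The sequences differ in what they hold. A RefSeq promoter window holds 250 bases before and 50 after the start, and motifs were counted only in the 250 bases before it. There Dgcr8 had 4 CCAAT boxes and 1 GC box, Tarbp2 had 3 and 3, Dicer1 had 1 and 1, and Ago4 had 0 and 5. Of 20085 such windows of autosomal genes in RefSeq, 35.3% held a CCAAT box and 43.4% a GC box in those bases, on either strand. Among the 10 windows of the 9 genes with an entry, 2 of them for Ago1, 6 held a CCAAT box, 9 a GC box and 0 a TATA box (TATAAA, or TTTATA on the other strand), which 11.7% of all windows held. Xpo5 was the only one of these genes with the NRF1 core (GCATGCGC, or GCGCATGC on the other strand), against 2.95% of all windows with it at least once. Its window held 4 matches. Both strands were counted and matches may overlap, so these need not be 4 separate sites. Of the 9534 windows with a peak in all 4 libraries, as 9 of these 10 windows had, 36.5% held a CCAAT box, 64.6% a GC box, 5.13% a TATA box and 4.96% the NRF1 core. These matches describe letters only and say nothing of binding.

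**Figure D1:**
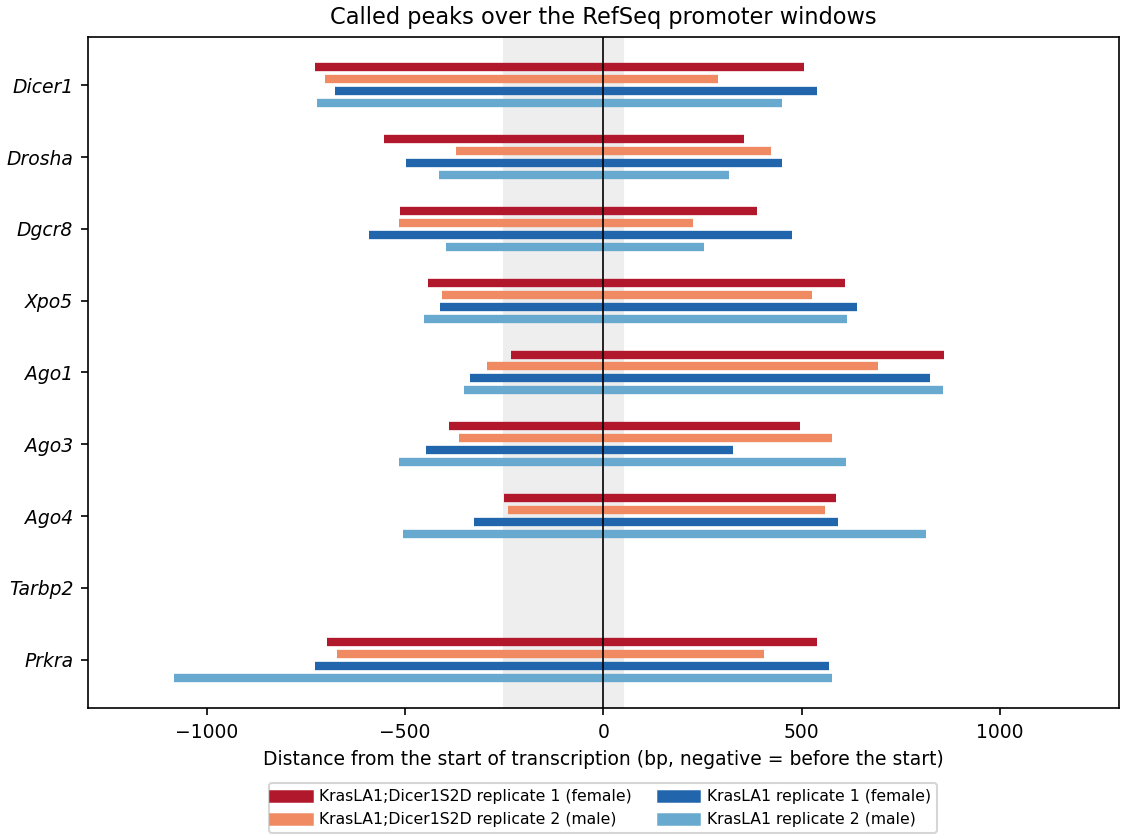
Extent of the called peak over the start of transcription of 9 genes in each library, in bp from the start (line at 0). For Ago1 the more upstream of its 2 annotated starts is used. Within each gene the bars run from KrasLA1;Dicer1S2D replicate 1 at the top to KrasLA1 replicate 2 at the bottom, and grey marks the 300-base RefSeq window. Peaks cover the start in all 4 libraries for 8 genes, and Tarbp2 has none.

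Chromatin at the start of transcription was called open in all 4 tumours for 8 of the 9 genes with a RefSeq promoter: Drosha, Dgcr8, Xpo5, Dicer1, Prkra, Ago1, Ago3 and Ago4. Of all 20085 windows, 47.5% had a peak in all 4 libraries and 44.5% in none. The 8 starts therefore held a peak in both KrasLA1;Dicer1S2D and both KrasLA1 tumours, and the genotypes did not differ in presence at any of them. The plot of peak extents shows that the peaks reached to both sides of every one of these starts.

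At the start of Dicer1 the peak was 1235 and 992 bp wide in the KrasLA1;Dicer1S2D tumours, against 1218 and 1175 bp in the KrasLA1 tumours. It began 702 to 728 bp before the start in KrasLA1;Dicer1S2D tumours and 677 to 723 bp before it in KrasLA1 tumours. The narrowest peak was that of KrasLA1;Dicer1S2D replicate 2, and the other 3 widths lay close together, with the KrasLA1;Dicer1S2D widths on either side of both KrasLA1 widths. The difference in log2 width, after centring each library on its median, was 0.05 (SE 0.23, limma adjusted p = 0.999).

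Prkra encodes an activator of the kinase PKR and a partner of Dicer1. Its start lay under peaks of 1237 and 1078 bp in KrasLA1;Dicer1S2D tumours, against 1298 and 1659 bp in KrasLA1 tumours. Both KrasLA1;Dicer1S2D values were below both KrasLA1 values, and KrasLA1 replicate 2 stood furthest off. In raw width this held for 4 of the 19 regions called in all 4 libraries, against 27.2% of all 26402 such regions, and the opposite, KrasLA1;Dicer1S2D wider without overlap, for 0 of 19, against 3.66%. The 4 regions were the starts of Prkra, Ago1 and Ago4 and the region of Polr1c and Yipf3 near Xpo5, a share near that of all regions. On the centred log2 scale the difference was -0.18 (SE 0.20, limma adjusted p = 0.999).

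Ago4, an Argonaute not known for slicing, had a peak of 838 and 799 bp at its start in KrasLA1;Dicer1S2D tumours, against 917 and 1322 bp in KrasLA1 tumours. Again the groups did not overlap in raw width, and KrasLA1 replicate 2 was the widest. The centred log2 difference was -0.26 (SE 0.22, limma adjusted p = 0.999). Dgcr8, the RNA-binding subunit of the Microprocessor, as the pair with Drosha is called, had 901 and 741 bp in KrasLA1;Dicer1S2D tumours, against 1068 and 651 bp in KrasLA1 tumours, so its groups overlapped.

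The region at the start of Drosha, the nuclear enzyme, also covered the promoter of 6030458C11Rik, and that at the start of Xpo5, the exporter, covered the promoter of Polh. Drosha's peak was 909 and 795 bp wide in KrasLA1;Dicer1S2D tumours, against 950 and 733 bp in KrasLA1 tumours. Xpo5's was 1052 and 934 bp in KrasLA1;Dicer1S2D tumours, against 1052 and 1069 bp in KrasLA1 tumours. Neither pair of groups was separated by more than its own spread, and a peak over 2 starts cannot be given to 1 of them.

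Tarbp2, whose protein binds double-stranded RNA and holds the precursor for Dicer1, stood apart. No library had a peak in its promoter window, in its body (chr15:102516077-102523676) or within 5 kb of it. The start used here, chr15:102518192 from the only RefSeq promoter entry of Tarbp2, lies inside the annotated body and not at its end. The only region of Tarbp2, chr15:102510286-102511060, lay 5017 bp from the gene and 7132 bp before that start, at the promoter of Map3k12. That region was 506 and 628 bp wide in KrasLA1;Dicer1S2D tumours, against 482 and 775 bp in KrasLA1 tumours. In the other direction the next region began 39764 bp after the start, at Atf7.

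The Tarbp2 window was rich in CpG for a window without a peak. It held 21 CpG dinucleotides and 59% G or C, against medians of 23 CpG and 62.3% in windows with a peak in all 4 libraries and 4 CpG and 49.3% in windows with none. Of the 6989 windows with at least as many CpG, 78.8% had a peak in all 4 libraries and 13.9% had none. The absence was the same in both groups, so it was no difference between the genotypes, and RNA levels were not measured here.

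**Figure D2:**
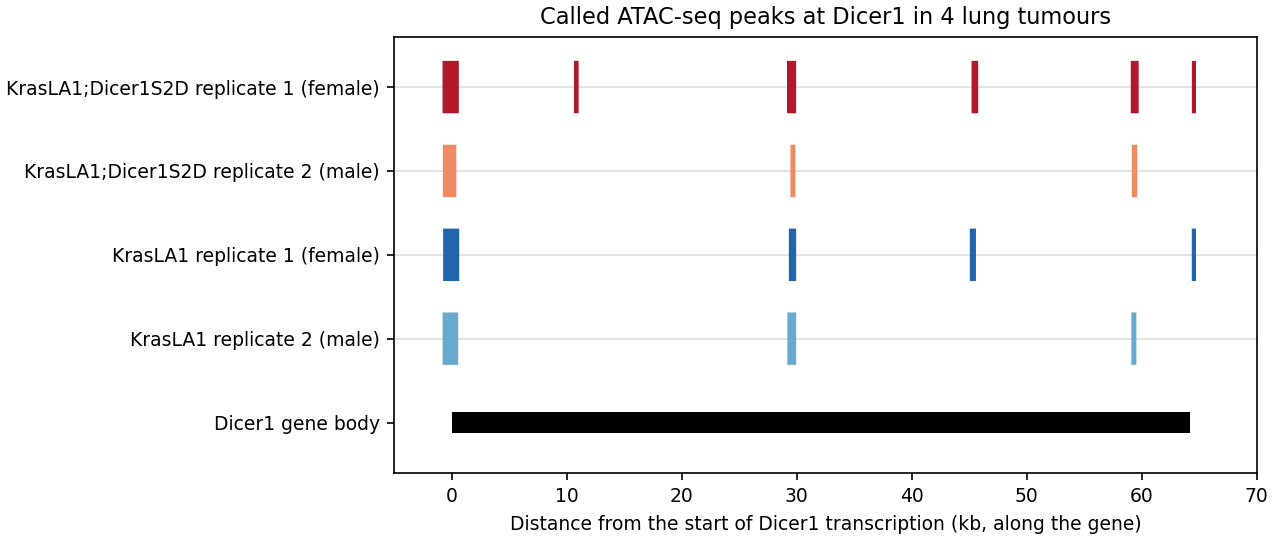
Called peaks at Dicer1 in the 4 libraries, KrasLA1;Dicer1S2D above KrasLA1, against the distance in kb from the start of transcription along the gene; bars are peaks with a thin outline that keeps narrow ones visible, and the black bar is the gene body. The start and the region near 29 kb are called in all 4 libraries, and the others in 1 to 3.

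Dicer1 (chr12:104687740-104751968 in mm10, reverse strand) had 6 regions, of which 2 were called in all 4 tumours: the start and a region in the gene body 29227 bp after it. The gene-body region, chr12:104722109-104722725, was 617 and 252 bp wide in KrasLA1;Dicer1S2D tumours, against 456 and 585 bp in KrasLA1 tumours. Those widths overlapped between the groups, with the narrowest again in KrasLA1;Dicer1S2D replicate 2.

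The other 4 Dicer1 regions were called in some tumours only. A region 59124 bp after the start had 506 and 286 bp in KrasLA1;Dicer1S2D tumours, against 0 and 254 bp in KrasLA1 tumours. Another, 45125 bp after the start, had 399 and 0 bp in KrasLA1;Dicer1S2D tumours, against 354 and 0 bp in KrasLA1 tumours. The region 218 bp past the end of the gene had 179 and 0 bp in KrasLA1;Dicer1S2D tumours, against 185 and 0 bp in KrasLA1 tumours. Both of the last 2 were called in the 2 females and in neither male. The remaining region, 224 bp wide and 10701 bp after the start, was called only in KrasLA1;Dicer1S2D replicate 1, the library with the most peaks.

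Dicer1 therefore had 6 and 3 peaks in KrasLA1;Dicer1S2D tumours, against 4 and 3 in KrasLA1 tumours. The length under its peaks was 3160 and 1530 bp in KrasLA1;Dicer1S2D tumours (2345 ± 1153 bp, SD, n = 2), against 2213 and 2014 bp in KrasLA1 tumours (2114 ± 141 bp, SD, n = 2). The KrasLA1;Dicer1S2D tumours were the highest and the lowest of the 4, so the groups overlapped. The log2 difference in length + 200 bp, after the same centring, was 0.23 (SE 0.32, limma adjusted p = 0.9995), and without KrasLA1;Dicer1S2D replicate 1 it was -0.13.

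The pattern of coverage at Dicer1 over the 4 libraries was shared with other genes. By Euclidean distance in log2(length under peaks + 200 bp) over the 4 libraries, the nearest of all protein-coding genes were Pepd at 0.15, Prxl2a and Fam83d at 0.16, Stom at 0.20 and Spatc1 at 0.23. Pepd, the closest, had 3138 and 1555 bp in KrasLA1;Dicer1S2D tumours, against 2476 and 2059 bp in KrasLA1 tumours. Of 16361 genes with a peak, 6 including Dicer1 had exactly its numbers of peaks in each library.

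**Figure D3:**
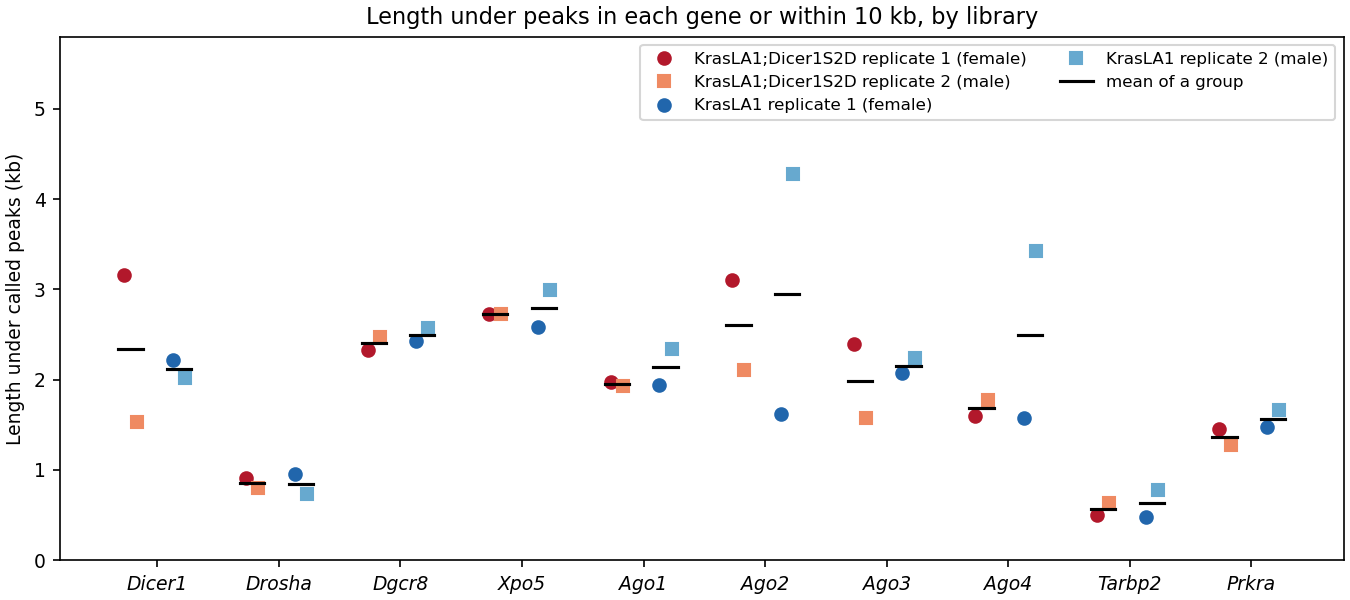
Length under called peaks, in kb, in the body of each of the 10 genes or within 10 kb of it. For each gene the 2 KrasLA1;Dicer1S2D libraries are left of the 2 KrasLA1 libraries, circles are females, squares are males, and black lines are group means; Ago2 and Ago4 are highest in KrasLA1 replicate 2 and Dicer1 in KrasLA1;Dicer1S2D replicate 1.

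Over all 10 genes the KrasLA1;Dicer1S2D tumours had 31 and 25 peaks (28 ± 4.24, SD, n = 2), against 26 and 28 in the KrasLA1 tumours (27 ± 1.41, SD, n = 2). The KrasLA1 values lay between the KrasLA1;Dicer1S2D values. The difference of 1 peak was smaller than the SD between replicates pooled over both groups, 3.16 peaks. Per 1000 peaks of a library these were 0.617 and 0.719 in KrasLA1;Dicer1S2D tumours, against 0.625 and 0.627 in KrasLA1 tumours. With 2 against 2 libraries an exact two-sided permutation test cannot go below p = 0.333.

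A gained region was one with a peak in each KrasLA1;Dicer1S2D library and in no KrasLA1 library, and none of the 10 genes had one, against 1.78% (283) of the 15882 autosomal genes with a region. Likewise 0 of the 10 had a lost region, with a peak in each KrasLA1 library and in no KrasLA1;Dicer1S2D library, against 4.87% (773) of those genes. Counted by region, 0 of 34 were gained and 0 lost, against 0.596% and 1.42% of 60713 autosomal regions. At these background shares a count of 0 among 10 genes or 34 regions is no result about the genes.

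By position, all 8 regions at starts were called in all 4 tumours. In gene bodies 6 of 19 were called in all 4, and of the 7 regions outside the genes 5 were. The shares of all regions by position were not counted, so this contrast cannot be called particular to these genes. Ago2 had no RefSeq promoter entry, so its regions could count only as gene body or outside. Its widest region, chr15:73184061-73185558, spans the higher-coordinate end of the gene and is among the 6. In total 19 of 34 regions, 55.9%, were called in all 4 libraries, against 43.5% of all autosomal regions. Of the other 15 regions, KrasLA1;Dicer1S2D tumours held 12 and 5, against 6 and 9 in KrasLA1 tumours. The libraries stand in the same order by all their peaks, 50282 and 34767 against 41621 and 44654. These counts are therefore no result about the genes.

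Several of the steadiest regions belong as much to a neighbour. A promoter of another gene lay under 6 of the 34 regions, and 4 of these were at no start of the 10 genes. At Dgcr8, chr16:18248120-18249610 is the promoter of Ranbp1 and Trmt2a. At Xpo5, chr17:46247798-46248438 is that of Polr1c and Yipf3, and at Ago3, chr4:126321126-126322051 is that of Adprhl2. The region chr4:126428929-126430058 is the start of Ago3 and lies 4954 bp from Ago1, so it is counted for both. All 6 were called in all 4 libraries.

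Of the nuclear genes, Drosha had 1 peak in each library, at its start. Its length under peaks was 909 and 795 bp in KrasLA1;Dicer1S2D tumours, against 950 and 733 bp in KrasLA1 tumours, with a centred log2 difference of 0.19 (SE 0.25). Dgcr8 had 3 and 3 peaks over 2328 and 2477 bp in KrasLA1;Dicer1S2D tumours, against 2 and 3 peaks over 2426 and 2574 bp in KrasLA1 tumours. The missing peak was a region in the gene body 10022 bp after the start, with 195 and 255 bp in KrasLA1;Dicer1S2D tumours, against 0 and 648 bp in KrasLA1 tumours. Xpo5 had 4 peaks in every library, over 2726 and 2727 bp in KrasLA1;Dicer1S2D tumours, against 2586 and 2994 bp in KrasLA1 tumours. The groups overlapped for all 3 genes.

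Within Xpo5, a region at the far end of the gene, chr17:46242380-46243452, was 991 bp wide in both KrasLA1;Dicer1S2D tumours, against 669 and 1073 bp in KrasLA1 tumours. Its centred log2 width difference, 0.39 (SE 0.24, limma adjusted p = 0.999, unadjusted p = 0.167), was the largest of the 19 regions called in all 4 libraries. In the fit across all 26402 such regions 0% passed with limma at an adjusted p of 0.05, 770 were under 0.05 before adjustment, and none of the 19 was.

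Dgcr8 and Xpo5 also hold microRNA genes of their own, and the Microprocessor is known to cut hairpins in the Dgcr8 transcript itself. The 5p arm of each, from RefSeq for GRCm38.p6, is given 5′ to 3′ with its seed (bases 2 to 8) in capitals, to show which products the 2 genes carry. They lie at chr16:18284288-18284310 and chr16:18284602-18284623 on the reverse strand in Dgcr8, and at chr17:46231551-46231571 on the forward strand in Xpo5.
mmu-miR-1306-5p: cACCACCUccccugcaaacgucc
mmu-miR-3618-5p: uGUGAUUUccaauaauugaggc
mmu-miR-693-5p: cAGCCACAuccgaaaguuuuc

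The 3 seeds differ from each other. No region was called at any of these hairpins: the nearest lay 4375 bp away for miR-1306 and 4055 bp for miR-3618, in both cases the start of Dgcr8, and 10761 bp away for miR-693.

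**Figure D4:**
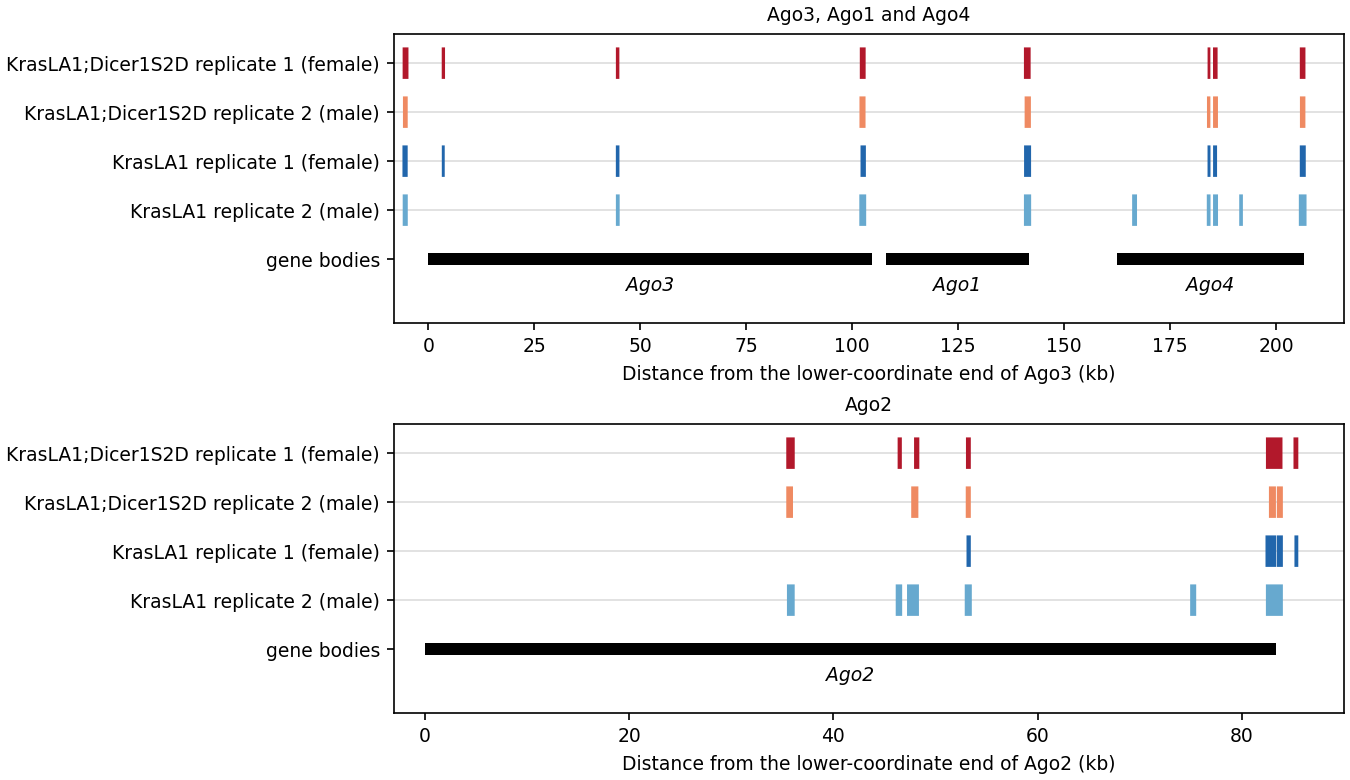
Called peaks at the Argonaute genes in the 4 libraries, KrasLA1;Dicer1S2D above KrasLA1, against the distance in kb from the lower-coordinate end of Ago3 (upper panel, with Ago1 and Ago4) and of Ago2 (lower panel); bars are peaks with a thin outline that keeps narrow ones visible, and black bars are gene bodies. KrasLA1 replicate 2 alone has 1 region in Ago2 and 2 in Ago4.

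Among the Argonaute genes, Ago2, the member with slicing activity, varied most. It had 6 and 5 peaks over 3102 and 2112 bp in KrasLA1;Dicer1S2D tumours (2607 ± 700.0 bp, SD, n = 2), against 4 and 6 peaks over 1621 and 4281 bp in KrasLA1 tumours (2951 ± 1881 bp, SD, n = 2). The KrasLA1 tumours were the lowest and the highest, so the groups overlapped. The centred log2 difference was 0.12 (SE 0.41, limma adjusted p = 0.9995). Leaving out KrasLA1;Dicer1S2D replicate 1 gave -0.02, and leaving out KrasLA1 replicate 1 gave -0.42.

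Ago2 had 7 regions on chromosome 15 (gene body chr15:73101625-73184947). The gene-body regions at chr15:73137112-73137736 and chr15:73148942-73149942 were called in every tumour but KrasLA1 replicate 1. The first had 625 and 454 bp in KrasLA1;Dicer1S2D tumours, against 0 and 555 bp in KrasLA1 tumours, and the second had 312 and 496 bp in KrasLA1;Dicer1S2D tumours, against 0 and 963 bp in KrasLA1 tumours. A region of 387 bp at chr15:73176680-73177066 was called in KrasLA1 replicate 2 only.

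At the higher-coordinate end of Ago2 lay its widest region, chr15:73184061-73185558. It was 1 peak of 1416 bp in KrasLA1;Dicer1S2D replicate 1 and 2 peaks of 482 and 388 bp with a gap of 292 bp in KrasLA1;Dicer1S2D replicate 2. In KrasLA1 replicate 1 it was 2 peaks of 825 and 406 bp with a gap of 267 bp, and in KrasLA1 replicate 2 it was 1 peak of 1459 bp. One whole and one split call thus fell in each group.

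Ago3, Ago1 and Ago4 lie beside each other on chromosome 4. Ago1 had 2 peaks in each library, over 1978 and 1930 bp in KrasLA1;Dicer1S2D tumours, against 1938 and 2338 bp in KrasLA1 tumours. Ago3 had 4 and 2 peaks over 2392 and 1576 bp in KrasLA1;Dicer1S2D tumours, against 4 and 3 peaks over 2069 and 2235 bp in KrasLA1 tumours. For both genes the ranges of the groups overlapped, and at Ago3 KrasLA1;Dicer1S2D replicate 2 was the lowest.

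Ago4 had 3 and 3 peaks over 1596 and 1776 bp in KrasLA1;Dicer1S2D tumours, against 3 and 5 peaks over 1572 and 3424 bp in KrasLA1 tumours. KrasLA1 replicate 2 alone stood out: it alone had regions of 660 bp at chr4:126493306-126493965 and 375 bp at chr4:126518574-126518948. The centred log2 difference was the lowest of the 10 genes, -0.26 (SE 0.35, limma adjusted p = 0.9995), and turned to 0.15 without that library. KrasLA1 replicate 2 also had the widest peaks of the 4 libraries over the whole genome, and the part of this in the Ago4 values was not tested.

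Of Dicer1's partners, Tarbp2 had the single peak at Map3k12 in each library. Prkra had 2 and 2 peaks over 1455 and 1275 bp in KrasLA1;Dicer1S2D tumours, against 2 and 1 peaks over 1476 and 1659 bp in KrasLA1 tumours. Its groups did not overlap, with both KrasLA1;Dicer1S2D tumours lower, as in 28.9% of all 15656 genes fitted, while 2.04% did not overlap with KrasLA1;Dicer1S2D higher. It was the only one of the 10 without overlap, and after centring its log2 difference was -0.01 (SE 0.19).

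Sex, or replicate number, divided some regions cleanly. Of the 34 regions, 4 were called in both females and neither male: the pair at Dicer1, chr15:73186803-73187071 just outside Ago2, and chr4:126330392-126330681 in Ago3. No region was called in both males and neither female. Among all autosomal regions these shares were 6.61% for the females and 2.31% for the males, so the 11.8% at these genes rests on 4 regions. With 1 mouse of each sex and genotype no test was made, and the low number of peaks in KrasLA1;Dicer1S2D replicate 2, a male, moves with it; its part in this was not tested.

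**Figure D5:**
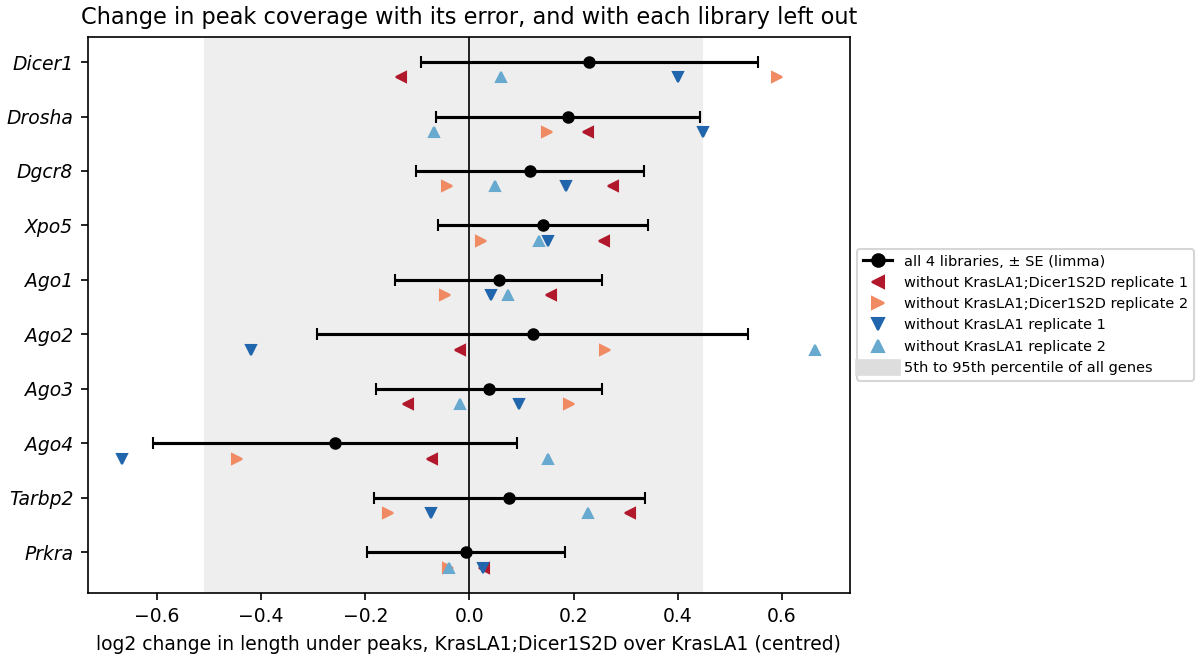
Centred log2 difference in length under peaks + 200 bp, KrasLA1;Dicer1S2D over KrasLA1, for the 10 genes: black points with SE are from all 4 libraries and coloured triangles leave out 1 library each. The grey band holds the 5th to 95th percentile of all genes fitted, -0.51 to 0.45, and every black point lies within it.

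In the fit across all genes none of the 10 passed. With limma, 0% of 15656 genes were called at an adjusted p of 0.05. Before adjustment 306 genes were under 0.05, with 0 of the 10 among them, whose lowest unadjusted p was 0.493. Centred differences of the 10 ran from -0.26 at Ago4 to 0.23 at Dicer1, with 8 positive and 2 negative. Of all genes fitted, 8251 were positive and 7405 negative. The median of the 10 was 0.10, against 0.01 over all genes. Without centring the median of all genes was -0.15, and the differences of Dgcr8, Xpo5, Ago1, Ago2, Ago3 and Tarbp2 were negative, so the signs of these small values are set by the scaling. The p-values measure only the spread between these 4 mice, and with 2 of each genotype a p that misses the threshold does not show that the groups were alike.

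The wider pathway was covered with 29 further genes, among them cofactors of the Microprocessor, regulators of let-7 and the Tnrc6 proteins that bind Argonautes. Peaks lay at all but Lin28b. Of the 27 autosomal genes with a region, 1 had a gained region and 0 a lost one, against the 1.78% and 4.87% given above. The 1 gene was Dis3l2, an exonuclease that degrades let-7 precursors marked with uridines. Its gained region, chr1:87008396-87008724, was 329 bp wide. With the widest 75% of peaks the counts were 0 gained and 1 lost, at Trim71, a let-7 target that binds RNA. Over all autosomal genes with a region, 245 of 15292 then had a gained and 669 a lost one. With equal numbers of peaks the pathway counts were 1 gained and 1 lost, against 442 and 575 of 15441 genes. Leaving out 1 library moved the pathway's gained count to between 1 and 8 and its lost count to between 3 and 10. Over all autosomal genes with a region, the gained count then ran from 820 of 15635 to 4098 of 15851. Their lost count ran from 1377 of 15851 to 4075 of 15683. The pathway counts thus turn on single libraries, as those of all genes do.

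Dis3l2 nonetheless had 6 peaks in every library. Their length was 2625 and 2327 bp in KrasLA1;Dicer1S2D tumours, against 2216 and 3140 bp in KrasLA1 tumours, and the groups overlapped. Its centred log2 difference was 0.08 (SE 0.21, limma adjusted p = 0.9995). Of the 28 pathway genes fitted, 0 passed in either direction with limma and 0 had an unadjusted p under 0.05, with differences from -0.39 to 0.26 and a median of 0.04.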

How the data were processed

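Lung tumour tissue (40-50 mg, snap frozen) of 2 KrasLA1;Dicer1S2D and 2 KrasLA1 mice was profiled by ATAC-seq by a company, per the labels' protocols. The deposited table holds other values than counts: start, end and name of each interval in mm10, as 4 tracks of peaks, 1 per library, and 1 of merged regions, per the file headers. It gives no height, score or p-value. Tools named in the submitters' processing notes are MACS3 3.0.0, deepTools 3.5.1 and BWA 0.7.12. Their roles and settings, the peak threshold, read filters, any shift for the transposase and read numbers are not given in any source used here, so no depth or counting interval could be given. All tracks were assigned to labels, and 0 columns belonged to no sample.

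Peaks overlapping by 1 bp or more were merged, which gave exactly the authors' 61972 regions. Coordinates count from 1. Gene bodies, promoters and microRNAs came from RefSeq for GRCm38.p6, which shares its chromosome sequences with mm10; exons were not available here, so gene-body regions were not split into exons and introns. Gained and lost regions were counted on the 19 autosomes. Length under peaks per gene (body and 10 kb on each side) was tested as log2(bp + 200), centred on each library's median, for genes with a peak in at least 2 libraries, and log2 width for regions called in all 4, with limma 3.58.1 in R 4.3.3, Benjamini-Hochberg adjustment and no block. Markers counted a peak in the gene or within 2 kb. Python 3.11.15, numpy 2.4.6, pandas 2.3.3 and matplotlib 3.10.9 were used. The steps were checked on simulated data with 200 genes changed by a known log2 amount. With each gene's own spread, 0% were recovered at a log2 change of 1 or 2 and 75.5% at 4. With the pooled median spread given to every gene, 59.5% were recovered at 1 and 100% at 2 and 4. So 0 genes passing leaves smaller changes undetected.

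The members, the pathway and marker lists and the rules were chosen with earlier results of these data known. All 10 members are named; of the pathway list, genes with a gained or lost region; and the 5 genes nearest to Dicer1. Alternatives covered equal numbers of widest peaks, the widest 75%, the gene body only, 5 kb, an overlap of 50%, pseudocounts of 50 and 1000 bp, no centring, any gene with a peak, each library left out, and a replicate block. Replicate numbers are shared by the groups and also mark sex, but the labels do not pair the mice. Some genes of the pathway and marker lists are counted and not reported by name here.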

Additional observations from a re-analysis of the deposited data

Results flagged for a closer look

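For 7 genes the difference between KrasLA1;Dicer1S2D and KrasLA1 had opposite signs in the 2 females and in the 2 males. The share of all genes with opposite signs was not counted, so the number 7 cannot be called unusual. There was 1 mouse per sex and genotype, so the difference between the sexes was not tested, and sex and replicate number cannot be told apart.

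Ago2 showed the widest gap. Its centred log2 difference in length under peaks was 0.80 in females and -0.56 in males, 1.36 apart, and its number of peaks differed by 2 in females and -1 in males, 3 apart. The next were Drosha, with -0.11 in females and 0.49 in males (-0.59 apart), and Dgcr8, with -0.11 in females and 0.34 in males (-0.45 apart).

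The others were smaller. Ago3 had 0.14 in females and -0.06 in males (0.20 apart), and Ago1 had -0.03 in females and 0.14 in males (-0.17 apart). Tarbp2 had -0.01 in females and 0.16 in males (-0.16 apart), and Prkra had -0.07 in females and 0.06 in males (-0.13 apart).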

How the results depend on the processing

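With limma, 0 genes and 0 regions passed under every alternative run, which in a design of this size says nothing about stability. Instead of 0 gained regions at the 10 genes there was 1, at Dicer1 (59124 bp after the start), with equal numbers of the widest peaks, since the 254 bp peak of KrasLA1 replicate 2 fell below that library's narrowest peak kept, 317 bp. Over all autosomal genes with a region, 442 of 15441 had a gained one in that setting. When 1 library was left out, which lets the other decide for its group, the gained count ran from 0 to 3 genes and the lost count from 0 to 2. Over all such genes the gained count then ran from 820 of 15635 to 4098 of 15851. Their lost count ran from 1377 of 15851 to 4075 of 15683. The highest counts of the 10 genes have their own settings. The 3 gained came without KrasLA1 replicate 2, where 2059 of all 15701 genes had a gained region. The 2 lost came without KrasLA1 replicate 1, where 4075 of all 15683 had a lost one. Beside these shares, the counts among the 10 genes are no result about them. Without KrasLA1;Dicer1S2D replicate 1 Ago3 was lost. Without KrasLA1;Dicer1S2D replicate 2 Dicer1 was gained at another region, of 224 bp and 10701 bp after the start, called in KrasLA1;Dicer1S2D replicate 1 only. Without KrasLA1 replicate 1 Prkra was gained and Ago2 and Ago4 were lost. Without KrasLA1 replicate 2 Ago2, Dgcr8 and Dicer1 were gained, Dicer1 at the region 59124 bp after the start. The difference in peaks over the 10 genes, 1 with all libraries and peaks, then ran from -2 to 4, and was 0 with equal numbers of peaks and -0.5 with the widest 75%, so its sign was not stable. Of the centred log2 differences, none of which passed, those of 9 genes changed sign when a library was left out. They ran from -0.13 to 0.59 at Dicer1, -0.068 to 0.45 at Drosha, -0.044 to 0.27 at Dgcr8, -0.046 to 0.16 at Ago1, -0.42 to 0.66 at Ago2, -0.12 to 0.19 at Ago3, -0.67 to 0.15 at Ago4, -0.16 to 0.31 at Tarbp2 and -0.042 to 0.028 at Prkra. Without centring the differences were -0.053 at Dgcr8, -0.028 at Xpo5, -0.11 at Ago1, -0.048 at Ago2, -0.13 at Ago3 and -0.093 at Tarbp2. The gene body alone gave -0.010 at Ago1 and -0.069 at Ago3, a window of 5 kb gave -0.42 at Ago1, where the region 4954 bp away lies at its edge, and the widest 75% of peaks gave -0.0075 at Dgcr8. Tarbp2 had no value within 5 kb or in the body, having no peak there. Other causes were not tested.

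With a replicate block 0 genes and 0 regions passed (567 and 1192 at an unadjusted p under 0.05), and the members' differences were the same, such as 0.23 at Dicer1. Across 15656 genes the replicate 1 minus replicate 2 differences of the groups correlated at r = 0.22; genes are not independent replicates, and the mice share only a number and a sex. Depth is unknown, so a region without a call cannot be told from one below the threshold.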
